A study of Mus musculus with 64 samples.

Results

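The collagen gene family of the mouse liver was taken as every gene whose whole symbol reads Col, a number, a and a number. The deposited counts cover 53008 gene names, of which 44 matched, and the 35 with a mean of at least 0.1 CPM (counts relative to the library total) over the 16 libraries are the members described here. They were grouped by the structure each chain is known to build, into 9 fibrillar members of 11 matching genes, 8 basement membrane members of 8, and 18 others of 25. The 9 matching genes left out were Col2a1, Col6a4, Col9a1, Col9a2, Col11a1, Col19a1, Col22a1, Col26a1 and Col28a1. Just inside the threshold lay Col9a3, Col7a1 and Col8a2, at 0.109, 0.177 and 0.19 CPM, and just outside it lay Col28a1, Col22a1 and Col6a4, at 0.0443, 0.0428 and 0.0286 CPM. A filter on low counts kept 30 of the 35 members for testing, and removed Col4a6, Col7a1, Col8a2, Col9a3 and Col17a1.

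Total RNA of liver was sequenced at the end of 16 weeks of feeding in 4 groups of 4 libraries: HuMgat2 mice fed HFD (a high-fat diet) or chow, and WT mice fed HFD or chow. HuMgat2 mice are humanized for Mgat2 and express human MOGAT2, an enzyme that joins a fatty acid to monoacylglycerol; WT mice are wild type for the mouse gene. The labels used here give no strain, sex, age or driving promoter. They do not say that each library came from a separate mouse, so p-values measure the spread between these libraries. Libraries are called by their numbers: 9 to 12 are HuMgat2 on HFD, 13 to 16 HuMgat2 on chow, 1 to 4 WT on HFD and 5 to 8 WT on chow, and values are listed in that order of numbers within a group. CPM of single libraries are scaled by TMM factors, which even out library composition.

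Collagens are the main structural proteins of the extracellular matrix, and each molecule is a triple helix of chains that separate genes encode. Fibrillar collagens such as types I, III and V pack into the fibres that make up scar tissue. Type IV collagen forms the sheet of basement membranes, to which types XV and XVIII attach. In liver, hepatic stellate cells beside the sinusoids are the best known source of fibrillar collagen when the tissue scars. Portal fibroblasts, endothelium and hepatocytes also make collagens.

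Each library held 12.4 to 25.8 M counts, and library 4 (WT on HFD) stood apart. It was the shallowest, albumin (Alb) took 0.85% of its counts against 3.26% to 6.02% in the other 15, and its quality weight in limma voom was 0.231, against 0.635 to 2.09. It was the highest of its group for 19 of the 30 tested members. Library 14 was likewise the highest of its group for 17, and library 9 was the lowest of its group for 17. Leaving library 4 out moved the calls of members and of all genes (in either direction) together in some comparisons. For diet in HuMgat2 17 members were called without it and 15 with it, where 19.2% of all genes were called without it and 14.0% with it. For diet in WT the members numbered 13 without it and 15 with it (14.7% and 15.1% of all genes), and averaged over genotypes 17 and 14 (26.9% and 23.9%). For genotype on HFD 8 were called either way (14.2% and 14.8% of all genes), on chow 1 without it and 0 with it (1.16% and 0.508%), and for the interaction 2 either way (6.4% and 4.87%). All 8 hepatocyte markers were detected in every group. These are bulk samples, in which more cells of a type and more RNA per cell cannot be told apart.

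One gene made up most of the collagen RNA. Col18a1 (ENSMUSG00000001435, GRCm39 chromosome 10, 76888012 to 77002382), whose protein carries endostatin at its end, averaged 116 RPKM, which is CPM per kilobase of exon, over all libraries. The next members per length were Col14a1 at 10.8, Col4a1 at 6.13, Col4a2 at 4.88, Col3a1 at 4.43 and Col5a3 at 4.37 RPKM. Col18a1 stood at 774, 782, 853 and 781 CPM in HuMgat2 on HFD and at 804, 824, 772 and 789 CPM in HuMgat2 on chow. WT libraries held 719, 778, 714 and 921 CPM on HFD and 758, 781, 847 and 720 CPM on chow. The diets overlapped in both genotypes, with a log2 change of 0.0 ± 0.11 (SE, adjusted p = 1) in HuMgat2 and 0.01 ± 0.11 (adjusted p = 0.963) in WT. Its share of all member RPKM was 62.2% ± 2.05 in HuMgat2 on HFD and 77.2% ± 2.38 in HuMgat2 on chow, and 68.9% ± 3.81 in WT on HFD and 78.1% ± 1.67 in WT on chow (SD, n = 4 each). These shares did not overlap between diets in either genotype.

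The first comparison was of the diets. In HuMgat2 mice 14 of the 30 tested members were higher on HFD and 1, Col25a1, was lower, at an adjusted p below 0.05 over 17318 genes by edgeR's quasi-likelihood test. Of all tested genes 7.56% were called higher and 6.4% lower in that comparison. In WT mice 15 members were higher and none lower, where 8.37% of all genes were called higher and 6.74% lower. The median log2 change of the tested members was 0.87 in HuMgat2 and 0.72 in WT, against -0.01 and 0.03 over all genes. The diets did not overlap for 17 members in HuMgat2, where 21.0% of all genes did not, and for 10 members in WT, where 18.2% did not. Averaged over genotypes 14 members were higher and none lower, where 13.3% of all genes were called higher and 10.5% lower. The averaged comparison uses the libraries of both others, so it is no separate evidence.

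**Figure D1:**
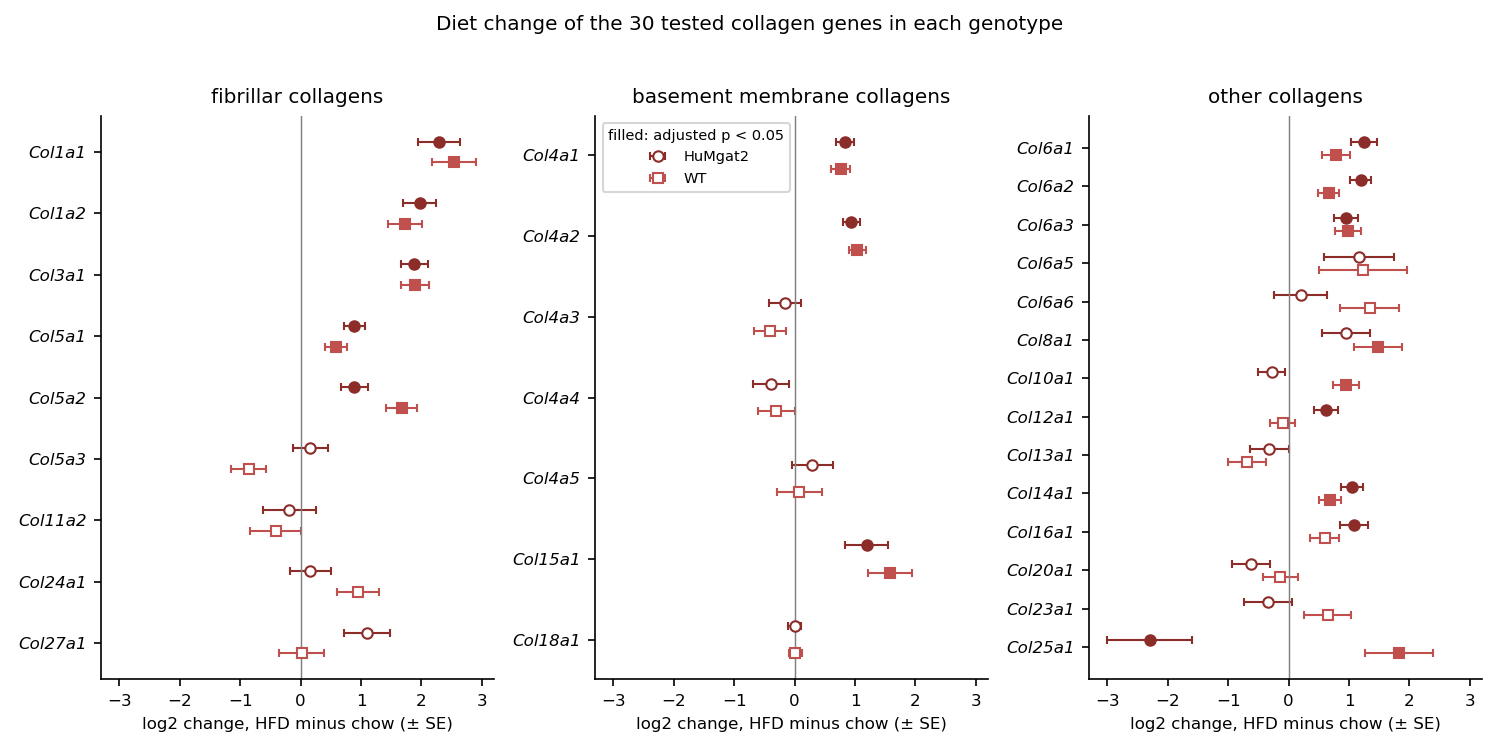
Log2 change between HFD and chow (x axis, bars are 1 SE) of each of the 30 tested collagen genes (y axis), in HuMgat2 mice (circles) and WT mice (squares); filled symbols have an adjusted p below 0.05. Col1a1, Col1a2, Col3a1, Col5a1, Col5a2, Col4a1, Col4a2 and Col15a1 lie right of 0 and are filled in both genotypes, Col18a1 lies at or next to 0, and Col25a1 lies left of 0 in HuMgat2 and right of 0 in WT.

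Of the 9 fibrillar members 5 were higher on HFD in each genotype, the chains of types I and III and 2 chains of type V. Col1a1 (ENSMUSG00000001506, GRCm39 chromosome 11, 94827050 to 94843868) encodes the chain present in 2 copies in type I collagen, the main protein of scar. It stood at 22.5, 34.3, 32.5 and 34.6 CPM in HuMgat2 on HFD and at 4.13, 9.94, 4.99 and 5.9 CPM in HuMgat2 on chow. In WT it stood at 6.99, 24.9, 21 and 35.2 CPM on HFD and at 4.25, 3.75, 3.13 and 3.95 CPM on chow. Every HFD library lay above every chow library of its genotype, and library 1 was the lowest on HFD. Col1a1 was 4.89-fold higher in HuMgat2 (log2 2.29 ± 0.35, adjusted p = 0.000419) and 5.8-fold higher in WT (log2 2.54 ± 0.37, adjusted p = 0.000406), the largest increase of any member in both.

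Col1a2, the partner chain of type I collagen, stood at 24.7, 34.6, 32.6 and 35.3 CPM in HuMgat2 on HFD and at 6.78, 12, 6.18 and 7.12 CPM in HuMgat2 on chow. WT libraries held 9.82, 24.2, 21.9 and 30.6 CPM on HFD and 7.89, 5.55, 5.94 and 6.48 CPM on chow. Again no diets overlapped, and Col1a2 was 3.93-fold higher in HuMgat2 (adjusted p = 0.000161) and 3.33-fold higher in WT (adjusted p = 0.000769). Col3a1 (ENSMUSG00000026043, GRCm39 chromosome 1, 45350698 to 45388866) encodes the only chain of type III collagen, which forms thin reticular fibres. It stood at 68.3, 79.1, 79.5 and 89 CPM in HuMgat2 on HFD and at 17.6, 29.2, 18.4 and 20.1 CPM in HuMgat2 on chow, and stood at 31.2, 57.7, 59.7 and 83.3 CPM in WT on HFD and 15.7, 18.1, 14.4 and 14.3 CPM in WT on chow. The diets lay apart in both genotypes, with log2 changes of 1.88 ± 0.22 in HuMgat2 (adjusted p = 4.25e-05) and 1.89 ± 0.23 in WT (adjusted p = 9.09e-05).

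**Figure D2:**
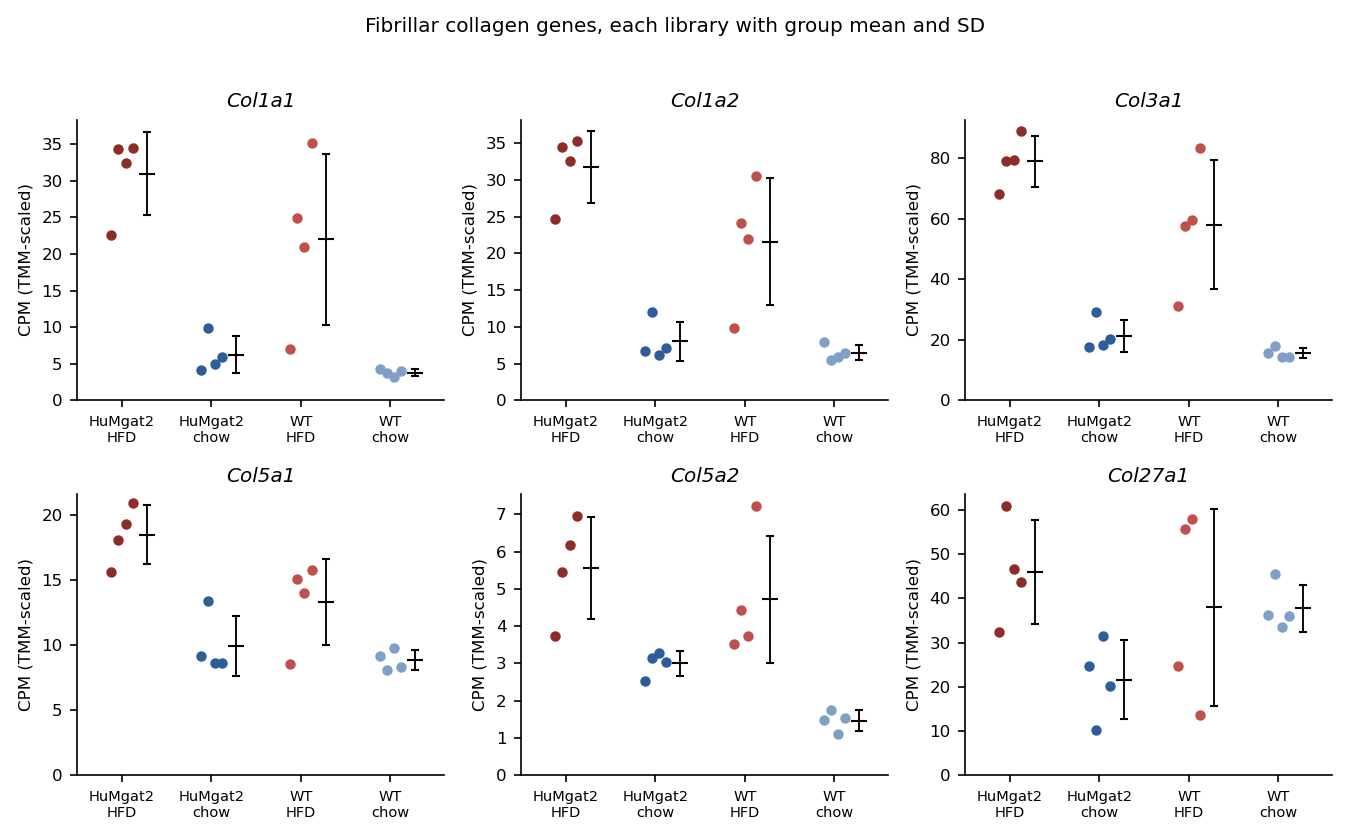
Level in TMM-scaled CPM (y axis) of 6 fibrillar collagen genes in each library (points), with the mean and SD of each group of 4 libraries beside them. HFD points lie above chow points of the same genotype for Col1a1, Col1a2, Col3a1 and Col5a2, while Col27a1 in WT on HFD spans 13.6 to 58 CPM and overlaps WT on chow.

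Type V collagen is a minor collagen inside type I fibres that helps to set their width. Col5a2, whose gene lies 24614 bases from Col3a1 on the opposite strand, stood at 3.74, 5.44, 6.17 and 6.95 CPM in HuMgat2 on HFD and at 2.52, 3.15, 3.28 and 3.04 CPM in HuMgat2 on chow. In WT it stood at 3.52, 4.42, 3.73 and 7.23 CPM on HFD and at 1.46, 1.76, 1.09 and 1.53 CPM on chow. The diets did not overlap in either genotype, and Col5a2 was 1.85-fold higher in HuMgat2 (adjusted p = 0.0165) and 3.18-fold higher in WT (adjusted p = 0.000479). Col5a1, its partner chain, stood at 15.6, 18.1, 19.3 and 20.9 CPM in HuMgat2 on HFD and at 9.17, 13.4, 8.59 and 8.61 CPM in HuMgat2 on chow, apart and 1.85-fold higher (adjusted p = 0.00318). WT libraries held 8.55, 15.1, 14 and 15.8 CPM on HFD and 9.17, 8.1, 9.75 and 8.3 CPM on chow. Library 1 fell among the WT chow libraries, and the WT difference was 1.51-fold (adjusted p = 0.0353).

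The 4 other fibrillar members were called in neither genotype. Col5a3, another type V chain, averaged 31.7 ± 5.65 CPM in HuMgat2 on HFD and 28.3 ± 7.44 CPM in HuMgat2 on chow, with 20.8 ± 10.1 CPM in WT on HFD and 38.3 ± 10.8 CPM in WT on chow (SD, n = 4 each). Its WT log2 change was -0.86 ± 0.29 (adjusted p = 0.0552), and 5 of 22 alternative analyses called it, DESeq2 among them (adjusted p = 0.0201). Col27a1, a fibrillar collagen best known from cartilage, stood at 32.4, 61, 46.6 and 43.8 CPM in HuMgat2 on HFD and at 24.7, 10.1, 31.4 and 20.2 CPM in HuMgat2 on chow. Those diets did not overlap, yet the difference missed the threshold (log2 1.1 ± 0.38, adjusted p = 0.0629); without library 4 it passed (adjusted p = 0.0129). In WT Col27a1 stood at 24.7, 55.7, 58 and 13.6 CPM on HFD and at 36.3, 45.6, 33.4 and 36 CPM on chow, overlapping. Library 4, the highest WT HFD library for the 5 called fibrillar members, was the lowest for Col5a3 and Col27a1. Col11a2 and Col24a1 stood between 0.167 and 1.34 CPM in all libraries.

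Ratios between partner chains were taken per length, in each library. There, the ratio of Col1a1 to Col1a2 was 1.71, 1.85, 1.86 and 1.83 in HuMgat2 on HFD and 1.14, 1.55, 1.51 and 1.55 in HuMgat2 on chow. In WT it was 1.33, 1.92, 1.79 and 2.15 on HFD and 1.01, 1.26, 0.983 and 1.14 on chow. HFD libraries lay above chow libraries in both genotypes. The ratio of Col5a2 to Col5a1 was 0.261 ± 0.0356 in HuMgat2 on HFD and 0.273 ± 0.0594 in HuMgat2 on chow, which overlapped, and 0.313 ± 0.0803 in WT on HFD and 0.147 ± 0.039 in WT on chow, which did not (SD, n = 4 each). The ratios of Col4a1 to Col4a2 and of Col6a1 to Col6a2 overlapped between diets in both genotypes. Ratios are given as descriptions, with no test.

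**Figure D3:**
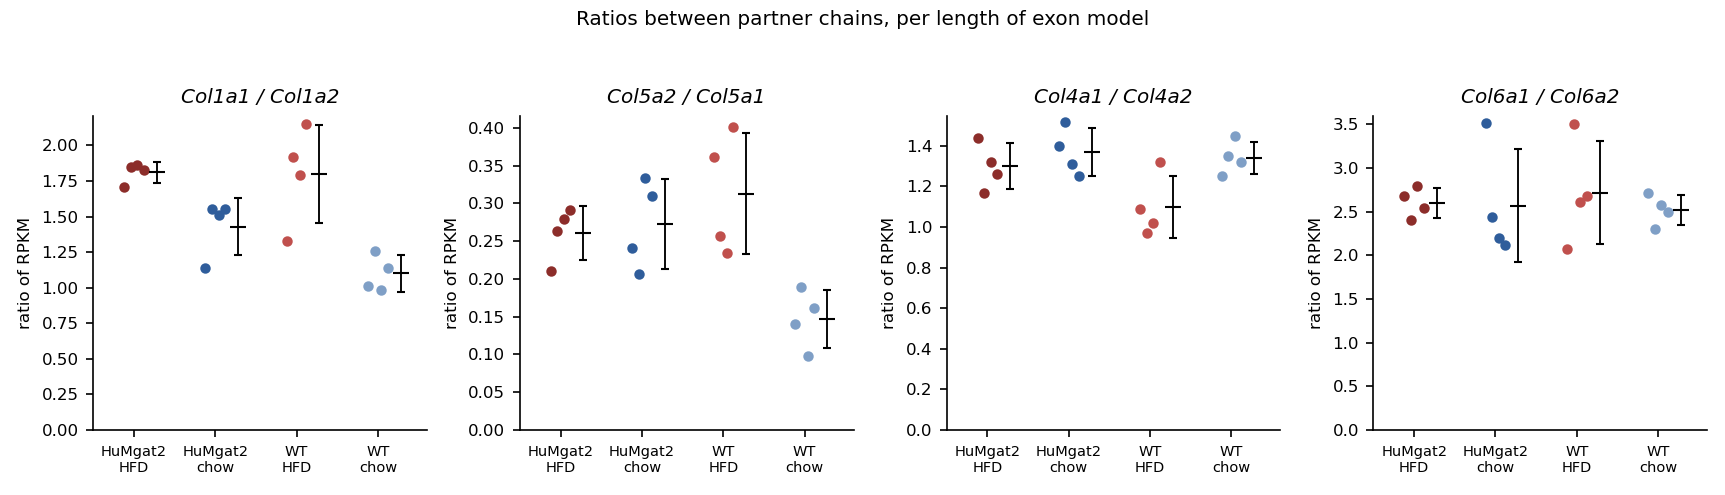
Ratio of RPKM between partner chains (y axis) in each library (points), with group mean and SD (n = 4 libraries). WT on chow lies below the other 3 groups for Col5a2 over Col5a1, HFD lies above chow within each genotype for Col1a1 over Col1a2, and the diets overlap for the 2 other ratios.

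The sequences before the start sites of 3 members are shown because these genes stand for the patterns found: Col3a1 and Col5a1 were higher on HFD in both genotypes, and Col25a1 changed in opposite directions. In WT the diets overlapped for Col5a1 and Col25a1, and their calls were lost in 8 and 7 of 22 alternatives. Each sequence holds the 250 bases before a RefSeq start site on the plus strand of GRCm38.p6, at chr1:45311288-45311537 for Col3a1, chr2:27886175-27886424 for Col5a1 and chr3:130180595-130180844 for Col25a1. None overlaps an exon in GENCODE M21. Capitals mark matches on either strand to the letters CCAAT of the CCAAT box, the letters TATAAA of the TATA box and the letters GGGCGG of the GC box. None of these 3 motifs contains another.
Col3a1: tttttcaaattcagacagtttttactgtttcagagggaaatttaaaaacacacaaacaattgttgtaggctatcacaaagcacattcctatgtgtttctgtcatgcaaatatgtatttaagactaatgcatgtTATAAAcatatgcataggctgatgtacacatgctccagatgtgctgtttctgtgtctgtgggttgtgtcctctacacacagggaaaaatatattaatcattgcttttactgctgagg
Col5a1: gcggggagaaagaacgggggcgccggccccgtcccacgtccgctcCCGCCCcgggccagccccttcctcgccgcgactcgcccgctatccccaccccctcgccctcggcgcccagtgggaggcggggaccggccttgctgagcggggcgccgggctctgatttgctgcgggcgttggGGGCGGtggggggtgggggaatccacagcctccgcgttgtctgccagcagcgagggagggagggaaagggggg
Col25a1: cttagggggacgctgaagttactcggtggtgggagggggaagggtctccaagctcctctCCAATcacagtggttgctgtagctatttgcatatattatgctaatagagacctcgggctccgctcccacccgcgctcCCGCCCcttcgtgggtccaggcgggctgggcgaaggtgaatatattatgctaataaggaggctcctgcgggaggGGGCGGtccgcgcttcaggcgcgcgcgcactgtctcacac
Col3a1 holds TATAAA 117 bases before its start. Col5a1 holds GGGCGG on the reverse strand at 205 bases and on the forward strand at 73 bases. Col25a1 holds CCAAT at 191 bases, and GGGCGG on the reverse strand at 114 and on the forward strand at 40 bases. The RefSeq table gave 31 windows for 29 of the 35 members. GGGCGG was in 61.3% of these windows, and in 58.3% of the 12 windows of members higher in the averaged diet comparison, against 32.7% of all 32851 windows of this length. CCAAT was in 32.3% of member windows against 33.8% of all, and TATAAA in 16.1% against 12.4%. A match is a run of letters and does not show a bound site.

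Of the 7 tested basement membrane members 3 were higher on HFD in each genotype, Col4a1, Col4a2 and Col15a1. Col4a1 (ENSMUSG00000031502, GRCm39 chromosome 8, 11248423 to 11362826) and Col4a2 encode the chains of the common type IV network and run in opposite directions, with gene models that share 22 bases. Col4a1 stood at 66.9, 69.6, 63 and 71.9 CPM in HuMgat2 on HFD and at 35.1, 47.5, 36.3 and 32.3 CPM in HuMgat2 on chow, 1.79-fold higher (adjusted p = 0.00155). In WT it stood at 34.8, 52, 41.2 and 64 CPM on HFD and at 26.3, 30.3, 26.9 and 30.1 CPM on chow, 1.69-fold higher (adjusted p = 0.00419). The diets were apart in both. Col4a2 stood at 41.5, 53.2, 42.4 and 50.8 CPM in HuMgat2 on HFD and at 22.3, 27.8, 24.7 and 23 CPM in HuMgat2 on chow, 1.92-fold higher (adjusted p = 0.000281). WT libraries held 28.5, 47.8, 35.9 and 43.4 CPM on HFD and 18.7, 20, 16.5 and 20.3 CPM on chow, 2.06-fold higher (adjusted p = 0.000241). Here too no HFD library reached down to the chow libraries of its genotype.

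Col15a1, a relative of Col18a1 in the membranes of vessels and muscle, stood at 8.14, 14.3, 16.2 and 13.8 CPM in HuMgat2 on HFD and at 7.43, 3.3, 6.66 and 5.8 CPM in HuMgat2 on chow, apart and 2.28-fold higher (adjusted p = 0.0322). In WT it stood at 8.89, 7.47, 10.3 and 27.4 CPM on HFD and at 3.78, 5.41, 4.4 and 4.2 CPM on chow, 2.98-fold higher (adjusted p = 0.00821). Library 4 was far above the rest of its group, and the other WT HFD libraries also lay above WT on chow; without library 4 the log2 change was 0.99 (adjusted p = 0.0115), against 1.58 with it. The remaining chains of type IV, known from specialised membranes such as those of the kidney, were low and not called: Col4a3, Col4a4 and Col4a5 ranged from 0.583 to 4.21 CPM, and the untested Col4a6 from 0.0907 to 0.448 CPM.

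Of the 14 tested members of the third group 6 were higher and 1 lower on HFD in HuMgat2, and 7 were higher in WT. Type VI collagen forms beaded filaments that link cells to the matrix, and its 3 main chains were higher in both genotypes. Col6a1 stood at 14.1, 15.6, 15.2 and 14 CPM in HuMgat2 on HFD and at 6.46, 7.86, 5.48 and 4.92 CPM in HuMgat2 on chow, 2.38-fold higher (adjusted p = 0.00136). WT libraries held 4.69, 11.4, 8.51 and 9.29 CPM on HFD and 6.28, 3.47, 4.49 and 5.39 CPM on chow, 1.73-fold higher (adjusted p = 0.0285). Col6a2, on the same strand 85161 bases away, stood at 10, 12.3, 10.3 and 10.5 CPM in HuMgat2 on HFD and at 3.49, 6.11, 4.73 and 4.4 CPM in HuMgat2 on chow, 2.29-fold higher (adjusted p = 0.000305). For Col6a1 and Col6a2 the diets were apart in HuMgat2. In WT Col6a2 stood at 4.3, 6.18, 6.2 and 6.59 CPM on HFD and at 4.39, 2.87, 3.31 and 4.1 CPM on chow, 1.58-fold higher (adjusted p = 0.0234). Col6a3 stood at 23, 24.4, 22.9 and 23.2 CPM in HuMgat2 on HFD and at 11.9, 16, 10.5 and 9.64 CPM in HuMgat2 on chow, apart and 1.94-fold higher (adjusted p = 0.00484). In WT Col6a3 stood at 10.5, 22.7, 20.7 and 25.8 CPM on HFD and at 10.8, 9.76, 9.75 and 10.1 CPM on chow, 1.97-fold higher (adjusted p = 0.005). Library 1 was the only HFD library within the chow range of its genotype for these 3 genes.

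Fibril-associated collagens sit on the surface of fibres and do not form them. Col14a1, one of these and the second member by RPKM, stood at 104, 109, 105 and 122 CPM in HuMgat2 on HFD and at 55.7, 76.8, 37.1 and 42.6 CPM in HuMgat2 on chow, 2.07-fold higher (adjusted p = 0.000847). In WT it stood at 63.5, 87.5, 74.3 and 64 CPM on HFD and at 46.7, 38, 46.9 and 47.9 CPM on chow, 1.61-fold higher (adjusted p = 0.0154). Neither genotype overlapped between diets. Col16a1, of the same class, stood at 2.93, 3.1, 3.36 and 3.54 CPM in HuMgat2 on HFD and at 1.29, 2.28, 1.29 and 1.17 CPM in HuMgat2 on chow, apart and 2.11-fold higher (adjusted p = 0.00437). WT libraries held 1.37, 2.17, 1.99 and 2.46 CPM on HFD and 1.28, 1.62, 1.09 and 1.24 CPM on chow, overlapping and not called (log2 0.6 ± 0.24, adjusted p = 0.0971). Col8a1, a short-chain collagen of vessel walls, was called in WT alone, and the difference between genotypes was not called (interaction adjusted p = 0.677). It stood at 1.51, 1.42, 2.42 and 1.48 CPM in HuMgat2 on HFD and at 0.969, 1.44, 0.43 and 0.609 CPM in HuMgat2 on chow (log2 0.95 ± 0.4, adjusted p = 0.129). In WT it stood at 1.17, 1.71, 1.94 and 4.45 CPM on HFD and at 1.04, 0.74, 0.635 and 0.791 CPM on chow, apart and 2.79-fold higher (adjusted p = 0.0213). Col6a5, Col6a6, Col13a1, Col20a1 and Col23a1 were called in neither diet comparison and averaged 0.421 to 2.66 CPM over all libraries. The untested Col7a1, Col8a2, Col9a3 and Col17a1 averaged 0.109 to 0.258 CPM.

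Some diet calls ended when 1 library was left out or a setting was changed. In HuMgat2 11 of the 15 held in every alternative. Col5a2 was lost without library 12 (adjusted p = 0.0591), Col15a1 without library 10, 11, 12, 14, 15 or 16 (up to 0.0891), Col25a1 without library 9, 10, 11, 12, 13, 14 or 15 (up to 0.105), and Col12a1 in 14 of 22 alternatives (up to 0.126). In WT 9 of the 15 held. Col5a1 was lost without library 2, 3, 4, 5, 6, 7 or 8, Col6a1 without 2, 6 or 7, Col6a2 without 2, 3, 6 or 7, Col8a1 without 4, 6 or 7, Col14a1 without 6 and Col25a1 without 1, 4, 6, 7 or 8. Fitting only the 2 WT groups ended 5 of these 6 calls, all but Col14a1, and limma voom ended that of Col25a1 (adjusted p = 0.345). Without library 6 (WT on chow) 9 members and 10.7% of all genes were called. All 14 calls averaged over genotypes held.

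HuMgat2 and WT were next compared on HFD. Of the 30 tested members 6 were higher in HuMgat2 (Col4a1, Col6a1, Col6a2, Col12a1, Col14a1 and Col16a1) and 2 were lower (Col10a1 and Col25a1), where 7.21% of all genes were called higher and 7.56% lower. The genotypes did not overlap for 8 members, where 21.2% of all genes did not. The median log2 change was 0.26 for the members and -0.04 over all genes. This comparison shares its libraries with the diet comparisons.

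With all libraries none of the 9 fibrillar members was called by edgeR, and 2 had an unadjusted p below 0.05. Col1a1 averaged 31 ± 5.7 CPM in HuMgat2 on HFD and 22 ± 11.7 CPM in WT on HFD (log2 0.5 ± 0.33, adjusted p = 0.321). Col3a1 averaged 79 ± 8.47 CPM in HuMgat2 on HFD and 58 ± 21.3 CPM in WT on HFD (SD, n = 4 each; log2 0.45 ± 0.22, adjusted p = 0.165). In limma voom with quality weights, which gives library 4 less weight, 14 members and 25.0% of all genes were called, against 8 members and 14.8% of all genes by edgeR. The 14 held Col1a1 (adjusted p = 0.0351), Col1a2 (0.016), Col3a1 (0.0155) and Col5a1 (0.0165). DESeq2 called 9, and 9.01% of the 33889 genes it fitted. Its fibrillar call was Col5a1 (adjusted p = 0.0432). In edgeR without library 4 the only fibrillar member called was Col3a1 (adjusted p = 0.0291), where 14.2% of all genes were called.

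The members higher in HuMgat2 were mostly of the third group. Col6a2 was 1.86-fold higher (log2 0.89 ± 0.18, adjusted p = 0.0032) and Col6a1 1.74-fold higher (adjusted p = 0.0228), and the HuMgat2 HFD libraries of both lay above all WT HFD libraries. Col6a3, the third chain of type VI, was not called, at 23.4 ± 0.724 CPM in HuMgat2 on HFD and 20 ± 6.64 CPM in WT on HFD (SD, n = 4 each; log2 0.23 ± 0.2, adjusted p = 0.456). Col12a1, a fibril-associated collagen, stood at 4.48, 5.58, 5.57 and 5.87 CPM in HuMgat2 on HFD and at 2.2, 4.34, 2.8 and 2.14 CPM in WT on HFD, apart and 1.85-fold higher (adjusted p = 0.00799). On chow Col12a1 stood at 3.36, 2.77, 4.14 and 3.79 CPM in HuMgat2 and at 3.5, 3.01, 3.13 and 2.87 CPM in WT. Its diet change was 1.53-fold in HuMgat2 (adjusted p = 0.049) and log2 -0.1 ± 0.21 in WT (adjusted p = 0.79), and the difference between these was not called (interaction log2 0.72 ± 0.29, adjusted p = 0.181). Col14a1 was 1.52-fold higher in HuMgat2 on HFD (adjusted p = 0.0293) and Col16a1 1.63-fold (adjusted p = 0.0425), both without overlap. Col4a1 was 1.42-fold higher (adjusted p = 0.0368), with library 4 inside the HuMgat2 range.

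**Figure D4:**
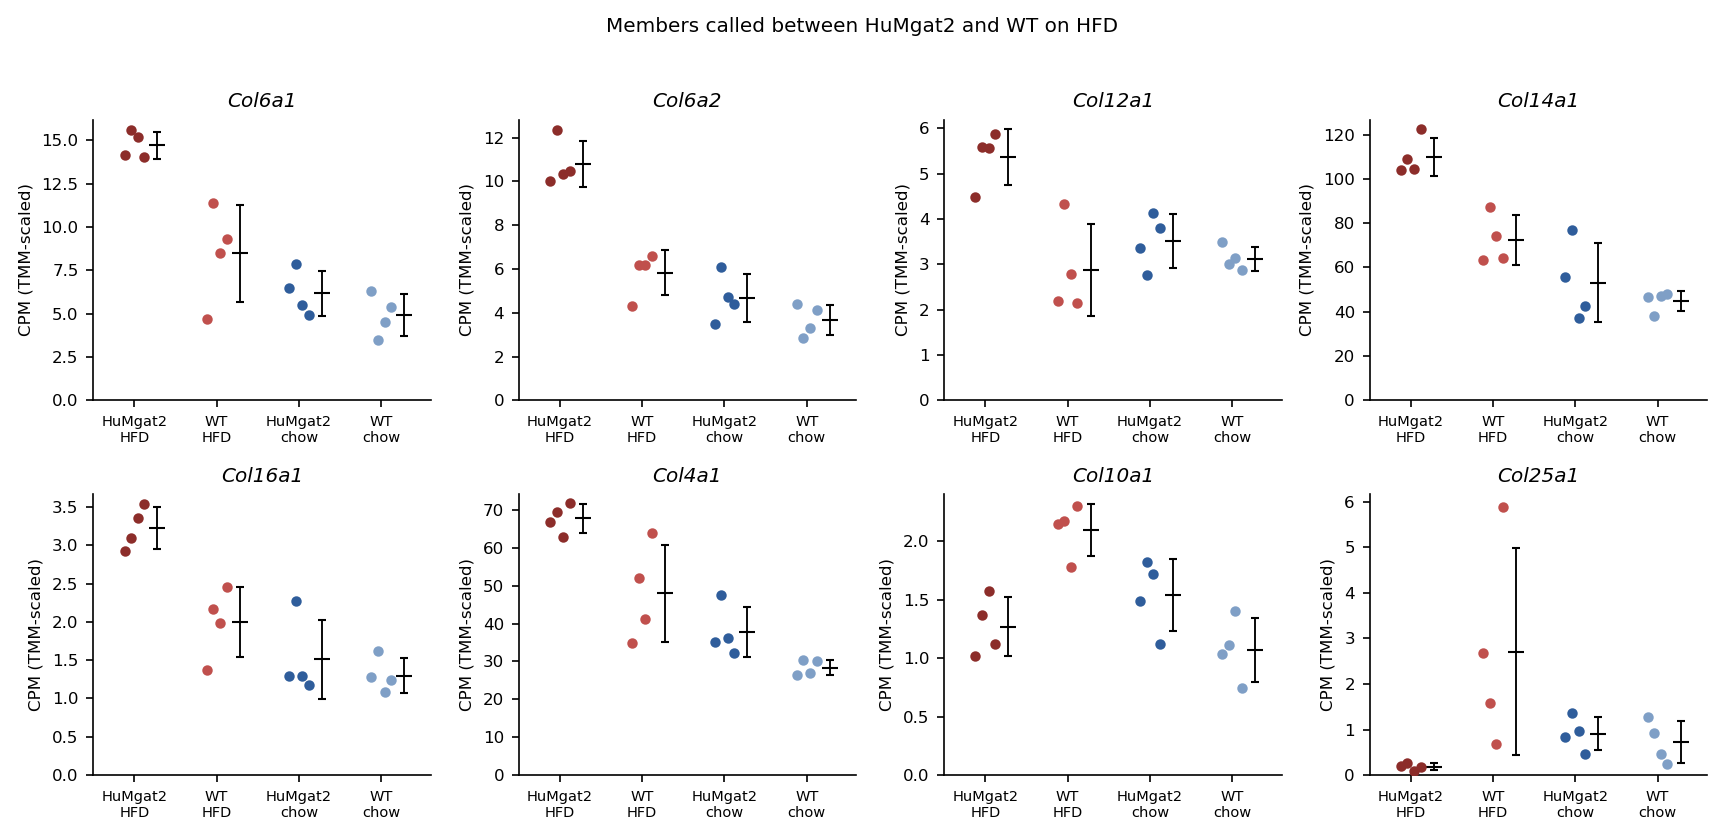
Level in TMM-scaled CPM (y axis) of the 8 collagen genes called between HuMgat2 and WT on HFD, in each library (points), with the mean and SD of each group of 4 libraries. HuMgat2 HFD libraries lie above all other libraries for Col6a1, Col6a2, Col12a1, Col14a1 and Col16a1, and for Col25a1 they lie below WT on HFD and HuMgat2 on chow but within reach of the lowest WT chow library.

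Between the genotypes on HFD the calls of Col6a2, Col12a1 and Col25a1 held in every alternative, and 5 did not. Col4a1 was lost without library 1, 3, 9, 10, 11 or 12 and with only the 2 groups fitted (up to adjusted p = 0.0892), and Col6a1 without library 10 or 11 (up to 0.057). Col10a1 was lost without library 1, 2, 4, 9, 10 or 12 and with no filter (up to 0.107), Col14a1 without library 1, 4, 10 or 12 (up to 0.075) and Col16a1 without library 1, 2, 3, 5, 9, 10, 11 or 12 (up to 0.0964). The number of members called was 5, 3, 5 and 4 without library 9, 10, 11 or 12 (HuMgat2 on HFD), where 10.6%, 8.99%, 10.0% and 10.6% of all genes were called. Without library 1 (WT on HFD) it was 4, where 14.9% of all genes were called.

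Col25a1 and Col10a1 were lower in HuMgat2 on HFD. Col25a1 (ENSMUSG00000058897, GRCm39 chromosome 3, 129925150 to 130393526) encodes a membrane-spanning collagen known from nerve and from the amyloid plaques of the human brain. It stood at 0.203, 0.266, 0.085 and 0.179 CPM in HuMgat2 on HFD and at 2.69, 1.59, 0.689 and 5.88 CPM in WT on HFD. On chow it stood at 0.839, 1.37, 0.967 and 0.468 CPM in HuMgat2 and at 1.28, 0.925, 0.453 and 0.247 CPM in WT. HuMgat2 on HFD lay below WT on HFD and below HuMgat2 on chow, while WT on HFD was widely spread and overlapped WT on chow. Col25a1 was 13.8-fold lower in HuMgat2 on HFD (log2 -3.79 ± 0.66, adjusted p = 0.00124), and the log2 change was -3.12 (adjusted p = 0.00147) without library 4. With diet its log2 change was -2.3 ± 0.7 in HuMgat2 (adjusted p = 0.0374) and 1.83 ± 0.56 in WT (adjusted p = 0.0353). The interaction was -4.13 ± 0.89 (adjusted p = 0.0137) and was called in every alternative. Without library 4 it was -3.46 (adjusted p = 0.0101) and the WT diet change was 1.16 (adjusted p = 0.118). Its counts were 2 to 74 per library, and the lowest HuMgat2 HFD library rests on the fewest of them.

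Col10a1 (ENSMUSG00000039462, GRCm39 chromosome 10, 34265977 to 34273081), the collagen of hypertrophic cartilage, stood at 1.02, 1.37, 1.57 and 1.12 CPM in HuMgat2 on HFD and at 2.15, 2.17, 1.78 and 2.3 CPM in WT on HFD, apart and 1.64-fold lower in HuMgat2 (adjusted p = 0.0377). On chow it stood at 1.49, 1.82, 1.72 and 1.12 CPM in HuMgat2 and at 1.04, 1.11, 1.41 and 0.741 CPM in WT. With diet it was not called in HuMgat2 (log2 -0.28 ± 0.22, adjusted p = 0.459) and was 1.94-fold higher in WT (adjusted p = 0.0098). The interaction was -1.23 ± 0.32 (adjusted p = 0.0336), and was lost with no filter and without library 1, 2, 5, 6, 8, 9, 10, 12, 13, 14 or 15 (up to adjusted p = 0.0736). Of all genes 4.87% were called for the interaction, and of the tested members these 2. The gene lies within Nt5dc1 on the opposite strand, and the counting shows no strand setting, so reads of the 2 genes where they overlap cannot be told apart. Nt5dc1 averaged 18.0 CPM and was not called (log2 0.08 between genotypes on HFD, adjusted p = 0.655; interaction log2 -0.04, adjusted p = 0.928); its part in the Col10a1 values was not tested.

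On chow none of the 30 tested members was called between HuMgat2 and WT by edgeR, where 0.508% of all genes were called. An unadjusted p below 0.05 was found for 6, DESeq2 called 1 and limma voom 0. The nearest was Col5a2, at 3 ± 0.333 CPM in HuMgat2 on chow and 1.46 ± 0.278 CPM in WT on chow (SD, n = 4 each), with no overlap (log2 1.04 ± 0.25, adjusted p = 0.0933). DESeq2 called Col5a2 (adjusted p = 0.0105), as did edgeR without library 4 (0.0167), with no filter (0.0469) and with only the 2 groups fitted (0.045). The genotypes did not overlap on chow for 5 members, Col5a2, Col27a1, Col4a1, Col4a2 and Col6a6, where 6.62% of all genes did not. The median log2 change of the members was 0.28, against 0.0 over all genes.

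Collagen chains are modified, trimmed, cross-linked and bound by other proteins, whose genes were counted in the averaged diet comparison, where 13.3% of all genes were called higher and 10.5% lower. Of 18 tested genes of processing in the endoplasmic reticulum 5 were higher and 2 lower. They included Serpinh1, the collagen chaperone (1.61-fold higher, adjusted p = 0.00129), Plod1, a lysyl hydroxylase (1.22-fold higher, adjusted p = 0.0157), Mia3, which loads procollagen for export (1.31-fold lower, adjusted p = 0.00258), and P4ha2, a prolyl hydroxylase subunit (1.5-fold lower, adjusted p = 0.00421). Of 11 genes of cleavage and cross-linking 7 were higher and 1 lower. Adamts2, which cuts off the N-propeptide (2.22-fold higher, adjusted p = 3.73e-05), Pcolce, an enhancer of C-propeptide cutting (1.59-fold higher, adjusted p = 0.000383), and the lysyl oxidase relatives Loxl2 (1.88-fold higher, adjusted p = 5.07e-05) and Loxl3 (1.78-fold higher, adjusted p = 0.00669) led these, and the 1 lower gene was Loxl4 (1.43-fold lower, adjusted p = 0.0204), named after its value was seen. By diet alone 5 genes of this list were higher in HuMgat2 mice and 2 in WT mice, where 7.56% and 8.37% of all genes were. For the interaction 1 was higher, where 4.87% of all genes were called in either direction. On chow 1 was lower in HuMgat2, where 0.508% of all genes were called. In HuMgat2 mice Loxl2 averaged 9.7 ± 1.29 CPM on HFD and 3.6 ± 0.667 CPM on chow. In WT mice it averaged 8.29 ± 1.66 CPM on HFD and 6.35 ± 0.536 CPM on chow (SD, n = 4 each).

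Of 11 fibril-associated matrix proteins 8 were higher and none lower, led by Sparc (1.6-fold higher, adjusted p = 0.000101), Lum (1.69-fold higher, adjusted p = 0.000898), Fbn1 (1.56-fold higher, adjusted p = 0.0017) and Thbs1 (2.47-fold higher, adjusted p = 0.00173). Of 16 laminins, nidogens and other partners of basement membranes 5 were higher and 1 lower; the laminin chain genes Lamb3 (3.32-fold higher, adjusted p = 1.71e-05) and Lamb1 (1.37-fold higher, adjusted p = 0.00248) and the nidogen gene Nid1 (1.53-fold higher, adjusted p = 0.000414) rose, and Nid2 fell (1.47-fold lower, adjusted p = 0.0068). By diet alone 6 of these basement membrane partners were higher and 1 lower in HuMgat2 mice, where 7.56% and 6.4% of all genes were. In WT mice 1 was higher and 1 lower, where 8.37% and 6.74% of all genes were. For the interaction 2 were higher and 1 lower, where 4.87% of all genes were called in either direction. Of 8 collagen receptors 3 were higher in the averaged comparison, Mrc2, an endocytic receptor (1.89-fold higher, adjusted p = 0.00246), Itga1 (1.18-fold higher, adjusted p = 0.00749) and Ddr2 (1.24-fold higher, adjusted p = 0.0386). Of 5 genes of degradation 2 were higher, the gelatinase gene Mmp2 (2.13-fold higher, adjusted p = 7.74e-05) and its inhibitor Timp2 (1.3-fold higher, adjusted p = 0.0111). Of 12 TGF-beta ligands, receptors and targets 4 were higher and 1 lower, with Ltbp1, which anchors the latent ligand (1.75-fold higher, adjusted p = 0.00016), the receptor gene Tgfbr2 (1.61-fold higher, adjusted p = 0.00036), Ltbp2 (2.06-fold higher, adjusted p = 0.00791) and the signal carrier Smad3 (1.7-fold lower, adjusted p = 2.32e-05). Median log2 changes of these 7 lists, in the order given, were 0.01, 0.71, 0.64, 0.23, 0.28, 0.38 and 0.29, against 0.01 over all genes.

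The same lists were counted between the genotypes on HFD, where 7.21% of all genes were called higher and 7.56% lower, and the genes named were chosen after their values were seen. Of the fibril-associated list 4 of 11 were higher in HuMgat2, Postn (2.67-fold higher, adjusted p = 0.00128), Dcn, Sparc and Lum. Of the basement membrane partners 5 of 16 were higher, Lamb3 (3.44-fold higher, adjusted p = 0.00033) with Lamb1, Lamc1, Nid1 and Pxdn, and 1 was lower, Lama3 (2.4-fold lower, adjusted p = 0.00429). Higher too were Loxl4 (1.8-fold higher, adjusted p = 0.0169) and Pcolce of 11 genes of cleavage and cross-linking, Mmp2 (1.79-fold higher, adjusted p = 0.00933) and Timp2 of 5 of degradation, Ltbp1 (1.75-fold higher, adjusted p = 0.0035) of 12 of the TGF-beta list and P4ha2 (1.52-fold higher, adjusted p = 0.0382) of 18 of processing. Leaving out single libraries gave 0 to 3 higher for cleavage and cross-linking, 1 to 4 for degradation and 0 to 2 for processing. It gave 3 to 5 for the fibril-associated list, 5 to 6 for the basement membrane partners and 1 for the TGF-beta list. Over these fits 8.99% to 15.3% of all genes were called in either direction. Of 8 receptors none was called by edgeR, where 2 had an unadjusted p below 0.05 and DESeq2 called 0.

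Markers of cell types were counted in the same comparisons, and their part in the collagen changes was not tested. Counts are over the markers tested and sums over every marker listed. In the averaged diet comparison 13.3% of all genes were called higher and 10.5% lower. Of 12 stellate cell markers 8 were higher in the averaged diet comparison and none lower, with Dcn (1.4-fold higher, adjusted p = 0.00218), which the fibril-associated list also holds, Pdgfrb (1.48-fold higher, adjusted p = 0.00353) and Hgf (1.37-fold higher, adjusted p = 0.00405) among them; leaving out single libraries gave 5 to 9. Their summed level was 493 ± 27.9 CPM in HuMgat2 on HFD (452 to 514) and 310 ± 65.9 in HuMgat2 on chow (240 to 391), and 372 ± 40.2 in WT on HFD (340 to 429) and 316 ± 38.9 in WT on chow (259 to 340; SD, n = 4 each). By diet 6 were higher in HuMgat2 mice, where 7.56% of all genes were. None was called in WT mice by edgeR, where 4 had an unadjusted p below 0.05, DESeq2 called 0 and limma voom 1. Between the genotypes on HFD 3 were higher in HuMgat2, where 7.21% of all genes were. For the interaction 1 was higher, where 4.87% of all genes were called in either direction. Leaving out single libraries gave 2 to 4 between the genotypes on HFD and 0 to 1 for the interaction. Of 8 macrophage markers 4 were higher in the averaged comparison. By diet 4 were higher in WT mice, where 8.37% of all genes were. In HuMgat2 mice edgeR called none, with 1 at an unadjusted p below 0.05, 0 by DESeq2 and 1 by limma voom, and the interaction was called for none of them (0 unadjusted, 0 by DESeq2). Their sum was 209 ± 18.2 CPM in HuMgat2 on HFD (183 to 223) and 156 ± 18.4 in HuMgat2 on chow (139 to 182), and 307 ± 218 in WT on HFD (169 to 631) and 157 ± 41.7 in WT on chow (118 to 216). The WT HFD sum rests on library 4 at 631 CPM, and was 198 ± 34.7 CPM without it (SD, n = 3). Without that library 2 macrophage markers were higher by diet in each genotype.

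Other lists gave smaller counts in the averaged comparison, where 13.3% of all genes were called higher and 10.5% lower. Of 10 endothelial markers 2 were higher, and the sums were 417 ± 9.97 CPM (HFD) and 375 ± 25 CPM (chow) in HuMgat2 mice, and 384 ± 19.4 CPM (HFD) and 387 ± 21.6 CPM (chow) in WT mice. Of 5 portal fibroblast markers 1 was higher, Fbln2 (1.99-fold higher, adjusted p = 0.00246), with sums of 10.5 ± 1.6 CPM (HFD) and 7.54 ± 1.32 CPM (chow) in HuMgat2 mice, and 7.88 ± 1.66 CPM (HFD) and 5.09 ± 1.12 CPM (chow) in WT mice. Of 5 mesothelial markers 2 were higher, Wt1 (3.16-fold higher, adjusted p = 0.0171) and Gpm6a (1.61-fold higher, adjusted p = 0.0353), and both were also higher in HuMgat2 on HFD than in WT on HFD. Leaving out single libraries gave 1 to 2 in the averaged comparison and 0 to 3 between the genotypes on HFD. By diet alone 2 were higher in HuMgat2 mice, where 7.56% of all genes were. None was called in WT mice by edgeR (0 unadjusted and 0 by DESeq2). Wt1 averaged 2.01 ± 0.923 CPM (HFD) and 0.338 ± 0.353 CPM (chow) in HuMgat2 mice. In WT mice it averaged 0.424 ± 0.275 CPM (HFD) and 0.29 ± 0.244 CPM (chow). Mesothelial sums were 8.65 ± 2.61 CPM (HFD) and 3.48 ± 1.07 CPM (chow) in HuMgat2 mice, and 3.15 ± 1.49 CPM (HFD) and 2.88 ± 1.78 CPM (chow) in WT mice.

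Myofibroblast and smooth muscle markers were low, with sums of 7.1 ± 1.06 CPM (HFD) and 8.16 ± 2.05 CPM (chow) in HuMgat2 mice, and 4.87 ± 1.87 CPM (HFD) and 3.22 ± 1.02 CPM (chow) in WT mice, and none of the 3 tested was called in the averaged comparison by edgeR (0 at an unadjusted p below 0.05 and 0 by DESeq2). Between the genotypes on chow 1 of the 3 was higher in HuMgat2, where 0.508% of all genes were called in either direction. Leaving out single libraries gave 0 to 1 there. Acta2, the defining marker, stood at 2.48 to 3.1 CPM in HuMgat2 on HFD and 1.74 to 4.26 CPM in HuMgat2 on chow. In WT mice it stood at 0.874 to 2.59 CPM on HFD and 0.544 to 1.65 CPM on chow. Of 5 cholangiocyte markers edgeR called none in the averaged comparison, with 1 at an unadjusted p below 0.05, 0 by DESeq2 and 1 by limma voom. Of 5 lymphocyte markers it called none either, with 0 unadjusted and 0 by DESeq2. By diet alone 2 lymphocyte markers were higher in WT mice (1 without library 4), where 8.37% of all genes were. For the interaction 1 lymphocyte marker was lower, where 4.87% of all genes were called in either direction. On HFD 3 lymphocyte markers, 3 hepatocyte markers and 1 macrophage marker were lower in HuMgat2 mice relative to WT mice, where 7.56% of all genes were; without library 4 no macrophage marker was called there by edgeR. Cholangiocyte sums were 11.1 ± 1.81 CPM (HFD) and 17.5 ± 0.596 CPM (chow) in HuMgat2 mice, and 12.2 ± 2.56 CPM (HFD) and 12.3 ± 3.91 CPM (chow) in WT mice. Lymphocyte sums were 2.45 ± 0.217 CPM (HFD) and 3.31 ± 0.54 CPM (chow) in HuMgat2 mice, and 8.94 ± 6.35 CPM (HFD) and 3.81 ± 0.402 CPM (chow) in WT mice. The WT HFD lymphocyte sum was 18.2 CPM in library 4 and 5.86 ± 1.88 CPM in the other 3 (SD). Of the adipocyte list only Cfd had enough counts, and it was higher on HFD. Between the genotypes on HFD it was 14.1-fold lower in HuMgat2 by edgeR (adjusted p = 0.00396). Cfd stood at 3.01 to 6.97 CPM in HuMgat2 on HFD and 0 to 0.234 CPM in HuMgat2 on chow, and stood at 0.159 to 130 CPM in WT on HFD and 0.136 to 0.416 CPM in WT on chow, while Adipoq was at 0 in all 8 WT libraries. No neutrophil marker had enough counts to be tested, and their sums were 0.177 to 0.651 CPM (HFD) and 0 to 0.304 CPM (chow) in HuMgat2 mice, and 0.122 to 14 CPM (HFD) and 0.0472 to 0.198 CPM (chow) in WT mice. Of 8 hepatocyte markers 4 were lower on HFD in the averaged comparison, where 10.5% of all genes were lower. By diet alone 4 were lower in HuMgat2 mice and 1 in WT mice, where 6.4% and 6.74% of all genes were. For the interaction 1 was lower, where 4.87% of all genes were called in either direction. Hepatocyte sums were 56900 ± 6390 CPM (HFD) and 73500 ± 11500 CPM (chow) in HuMgat2 mice. In WT mice they were 53700 ± 12000 CPM (HFD) and 78200 ± 6640 CPM (chow). Library 4 set the extremes of WT on HFD for these 3 lists. The adipocyte sum was 0.159 CPM in library 4 and 97.4 ± 28.3 CPM in the other 3. Neutrophil markers summed to 14 CPM in library 4 and 0.498 ± 0.358 CPM in the other 3. For hepatocyte markers the sums were 35800 CPM in library 4 and 59700 ± 783 CPM in the other 3 (SD).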

How the data were processed

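Per the file headers, the authors counted read pairs with featureCounts 2.0.1 on GRCm39 annotation release 103, by gene name, and deposited the raw counts; the header shows pairs with both ends mapped and no option for strand, multi-mapping, overlapping genes or duplicates. Per the submitters' processing notes, STAR 2.7 and DESeq2 1.26.0 were used with mm39. Per the labels' protocols, a stranded total RNA kit with ribosomal RNA removal was used. The 64 records are 4 per library, and each of the 16 libraries was used once.

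All 4 groups were fitted together with edgeR 4.0.16 (quasi-likelihood test, TMM scaling, filterByExpr) in R 4.3.3, with Benjamini-Hochberg adjustment over 17318 genes, two-sided, at an adjusted p below 0.05. The SE is the log2 change divided by the square root of F. CPM are TMM-scaled, except for the 0.1 CPM threshold and means over all libraries; RPKM divide by the deposited exon length. Total counts were 12.4 to 25.8 M, so a member at 1 CPM rests on few reads. Each comparison was also run with DESeq2 1.42.0, with limma 3.58.1 voom and its quality weights, and in edgeR with DESeq2 scaling, without the filter, for genes averaging 1 CPM or more, on the 2 groups alone, and without each library in turn. The fitting script was tested on simulated data. Members past the threshold are named, with each library's value from a mean of 1 CPM; other lists give up to 4 called genes with the smallest adjusted p in the averaged diet comparison. Members and lists were chosen with earlier results of these data known. Sequences are from RefSeq (GRCm38.p6), matched by symbol.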

Additional observations from a re-analysis of the deposited data

Results flagged for a closer look

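Single libraries stood apart from the other 3 of their group in 6 of 68 groups (17 members in 4 groups each); chance alone would put about 5% of groups past this limit. Col1a2 was 12.0 CPM in library 14 (HuMgat2 on chow) against 6.18 to 7.12 CPM in the rest of its group. In the same library Col5a1 was 13.4 CPM against 8.59 to 9.17 CPM, and Col16a1 was 2.28 CPM against 1.17 to 1.29 CPM. Col15a1 was 27.4 CPM in library 4 (WT on HFD) against 7.47 to 10.3 CPM, and Col8a1 was 2.42 CPM in library 11 (HuMgat2 on HFD) against 1.42 to 1.51 CPM. Col14a1 was low in library 6 (WT on chow), at 38.0 CPM against 46.7 to 47.9 CPM.

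The diet change differed between the genotypes for 2 members by edgeR's interaction test (HuMgat2 minus WT), with log2 values of -4.13 for Col25a1 (adjusted p = 0.0137) and -1.23 for Col10a1 (adjusted p = 0.0336).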

How the results depend on the processing

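Of 54 called member changes 38 held in every alternative run for their comparison, and 1074 of 1171 alternative values kept the call. None of these values changed sign. The 54 include the 14 calls averaged over genotypes, which all held and use the libraries of both diet comparisons. Leaving out each library in turn gave 9 to 15 members called for diet in WT (15 with all libraries), 3 to 10 for HuMgat2 against WT on HFD (8 with all), 0 to 1 for HuMgat2 against WT on chow (0 with all) and 1 to 2 for the interaction (2 with all). The share of all genes called ranged over the same settings from 9.42% to 15.1%, 8.99% to 15.3%, 0.298% to 1.16% and 2.98% to 6.4% in these 4 comparisons. For HuMgat2 against WT on HFD limma voom with quality weights gave 14. For HuMgat2 against WT on chow no filter, only the 2 groups and the DESeq2 test each gave 1, and for the interaction no filter gave 1. The causes were not tested. Called changes of 80 listed genes gave 4205 alternative values, of which 0 changed sign. No paired analysis was possible because the groups share no library numbers. Depth limits the members near 1 CPM, such as Col25a1, Col10a1 and Col8a1.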
